A study of Mus musculus with 24 samples.

Results

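Metabotropic glutamate receptors are G protein-coupled receptors through which the transmitter glutamate adjusts the strength of synapses over seconds and longer. They work as dimers, with a large extracellular domain that closes on glutamate. Group I receptors, here Grm5, couple to Gq and phospholipase C, sit mostly beside the postsynaptic density and are held there by Homer proteins. Group II (Grm2, Grm3) and group III (Grm4, Grm6, Grm7, Grm8) couple to Gi/o, lower cyclic AMP and mostly restrain transmitter release, and Grm3 is also made by astrocytes. Grm6 is the receptor of ON bipolar cells of the retina.

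The 7 genes Grm2 to Grm8 were followed on 15 1-colour Agilent arrays of mouse hippocampal RNA. Members were every non-control probe whose gene name in the scanner files was one of the 7, which gave 10 probes (3 for Grm5, 2 for Grm4 and 1 for each of the other genes) of 55681 probes and 36163 gene names in all. The animals were C57BL/6 mice labelled male and killed at postnatal day 9, and each array held RNA of the hippocampi of 1 animal. Control pups (Con, n = 5) received no morphine and stayed with the dam. The MS2 group (n = 5) received morphine at 2 mg/kg and the MS5 group (n = 5) at 5 mg/kg, injected subcutaneously in the morning and afternoon from day 5, and both groups were also kept away from the dam and exposed to brief apnea, first in nitrogen and then in oxygen. The contrasts with controls therefore spanned morphine and stress together, whereas MS5 against MS2 compared doses under the same stress. Values below are log2 intensities, normalized between arrays, unless a fold is named.

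The median spot signal was 121 to 154 on 14 arrays and 58.2 on MS2 replicate 5, and 67.1% to 79.0% of spots were well above background. The number of arrays limited the precision. On 2 arrays marker levels stood against the labels. Neurod2 and Neurod6, transcription factors of hippocampal excitatory neurons, lay at 10.59 and 10.02 on MS2 replicate 4 but at 13.49 to 14.46 and 13.03 to 13.89 on the 14 other arrays. On the same array Pmch and Hcrt, neuropeptide genes of the lateral hypothalamus, lay at 13.33 and 12.31 against 5.99 to 7.55 and 7.92 to 8.45 elsewhere. The 8 listed hippocampal neuron markers stood at -2.11 from the control mean, on average, on this array (MS2 range of the list mean 10.78 to 13.05, Con 12.61 to 13.05, MS5 12.52 to 12.88), and the 11 listed hypothalamus and thalamus markers averaged 2.69 above it (MS2 range 8.50 to 11.32, Con 8.35 to 8.85, MS5 8.61 to 9.91). Of these 11 markers 10 lay above every control array on MS2 replicate 4. The exception was Prkcd, at 10.32 on this array against 10.86 to 11.68 elsewhere. MS2 replicate 4 lay beyond the range of the other 14 arrays at 16839 of 55681 probes (30.2%). The other array was MS5 replicate 9, labelled male, which carried Xist at 11.34 against a mean of 5.98 elsewhere. Within the MS5 group the 12 choroid plexus markers stood on average at -3.41 and -2.37 from the control mean on replicates 14 and 9, and the hypothalamus and thalamus list averaged 0.88 to 1.28 above it on replicates 8, 12 and 14. Receptor results that rest on the MS2 group are therefore given with and without MS2 replicate 4.

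Each receptor was read through 60-base probes placed on mm9. 3 stretches are shown, from the probes with an outlying array that are flagged at the end of the text. The Grm8 and second Grm5 probes begin with the last codons of the open reading frame and its stop codon (in capitals), so that they span the end of the coding region. The brighter Grm4 probe has an open frame of 19 whole codons that starts after its first base. The frames were set by hand, with no protein sequence to check them against.
Grm8 A_55_P1996702, first 27 bases: atcagctacagtaatcattcaatcTGA
Grm5 A_55_P2112464, first 45 bases: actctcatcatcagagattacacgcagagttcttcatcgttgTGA
Grm4 A_55_P2073682, all 60 bases: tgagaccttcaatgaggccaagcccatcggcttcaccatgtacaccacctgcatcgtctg
The Grm8 stretch holds 8 codons before the stop and the Grm5 stretch 14. The Grm8 probe lies at chr6:27225612-27225671 on the minus strand and the brighter Grm4 probe at chr17:27571527-27571586, also on the minus strand. The second Grm4 probe, A_55_P2010376, lies at chr17:27559349-27559408 on the same strand. The Grm5 probes are on the plus strand, A_55_P2033425 at chr7:95282581-95282640, A_55_P2112464 at chr7:95279335-95279394 and A_55_P2316783 at chr7:94732759-94732818. A_55_P2316783 is annotated to a different Grm5 transcript record from the other Grm5 probes, so it may read another transcript form. The remaining probes are those of Grm2 (chr9:106547222-106547281, minus), Grm3 (chr5:9485369-9485428, minus), Grm6 (chr11:50679649-50679708, plus) and Grm7 (chr6:111517083-111517142, plus). Exons and untranslated regions were not assigned at these positions.

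No receptor probe was called in any contrast, but few probes of the whole array were, so this says little about the receptors. A call needed a difference over 1.5-fold and an unadjusted limma p under 0.05. By this rule 0 of the 10 probes were called in MS2 against controls, where 0.0233% of all probes were called, 0 in MS5 against controls (0.228% of all) and 0 in MS5 against MS2 (0.129% of all). By the unadjusted p alone, 0 of 10 passed in MS2 against controls (4.17% of all probes), 1 of 10 in MS5 against controls (3.9% of all) and 0 of 10 in MS5 against MS2 (3.97% of all). No receptor probe had groups that did not overlap, a state found at 0.702%, 0.828% and 0.621% of all probes in the same order. After Benjamini-Hochberg adjustment over all 55681 probes 0 receptor probes passed in any contrast, and the smallest limma adjusted p of any probe was 0.970 in MS2 against controls, 0.635 in MS5 against controls and 1.00 in MS5 against MS2.

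Of the 9 probes well above background on all 15 arrays, 8 were nominally higher and 1 lower in MS2 than in controls, with a median log2 difference of all 10 probes of 0.08. In MS5 against controls 7 were higher and 2 lower, with a median of 0.09. In MS5 against MS2 4 were higher and 5 lower, with a median of -0.03. Without MS2 replicate 4 the counts were 7 and 2 in MS2 against controls, with a median of 0.04, and 5 and 4 in MS5 against MS2, where the median turned to 0.02. With MS5 replicate 9 left out as well, 6 were higher and 3 lower in MS5 against controls, with a median of 0.03. The medians over all 55681 probes were 0.00 in each contrast. The contrasts share arrays, so these counts do not stand apart from each other. The 95% limma intervals lay within 1.5-fold either way (0.585 on the log2 scale) for 8 of the 9 probes in MS2 against controls, 7 of 9 in MS5 against controls and 8 of 9 in MS5 against MS2. The exceptions were Grm8 in each contrast and the second Grm4 probe in MS5 against controls. Without MS2 replicate 4 the count was 8 of 9 in each contrast, with Grm8 as the exception in MS2 against controls and the second Grm4 probe in the other contrasts.

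**Figure D1:**
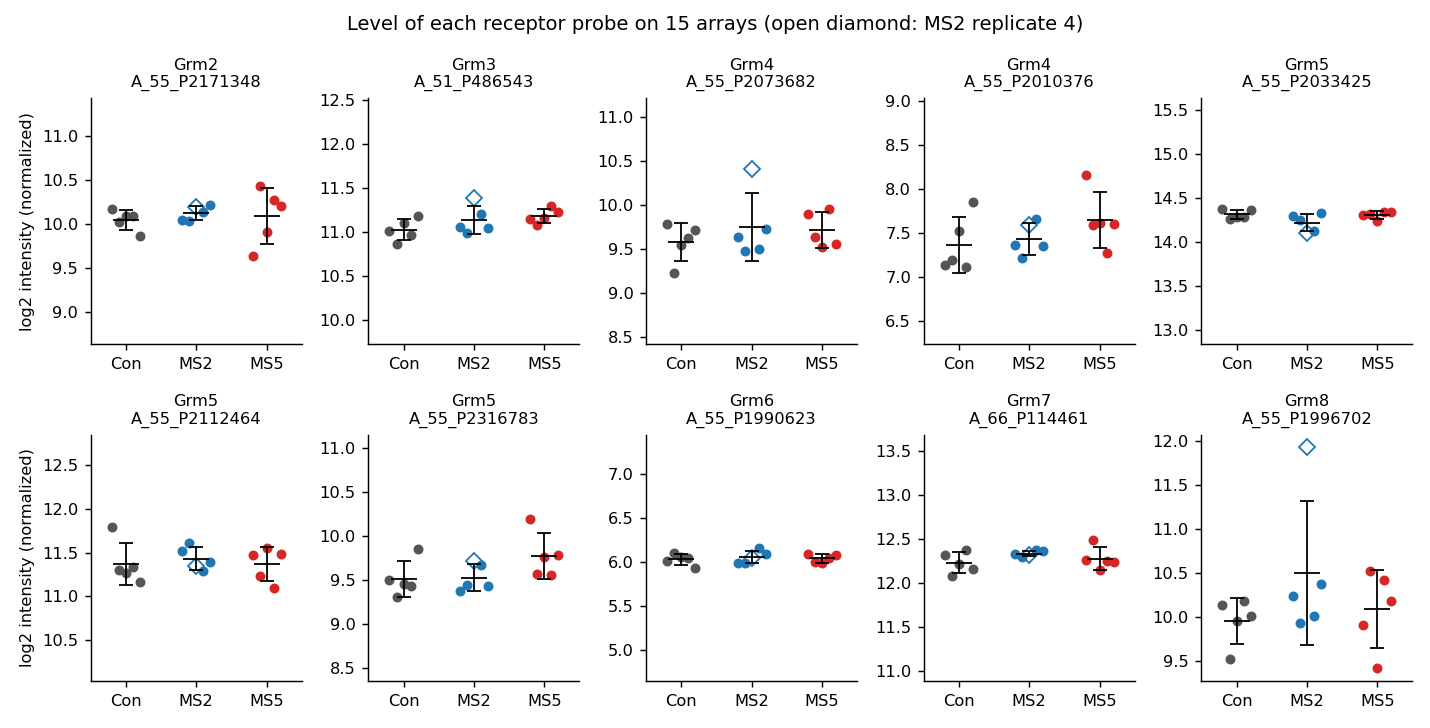
Normalized log2 intensity of the 10 receptor probes (y axis, the same span of log2 units in each panel) on each array of the 3 groups (x axis). Points are arrays, bars are the mean and SD of 5 arrays, and the open diamond is MS2 replicate 4, which at Grm8 lay at 11.93 while the other 14 arrays lay between 9.42 and 10.52.

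Grm5 is the group I receptor whose activation drives phospholipase C and long-term depression in the hippocampus. Its brightest probe, A_55_P2033425, read 14.37, 14.26, 14.28, 14.28 and 14.36 on control arrays. On MS2 replicates 1, 3, 4, 5 and 7 it read 14.29, 14.25, 14.10, 14.12 and 14.32, and on MS5 replicates 8, 9, 12, 13 and 14 it read 14.30, 14.32, 14.23, 14.33 and 14.34. The lowest pair were MS2 replicates 4 and 5, and the MS2 range reached into the control range.

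The group means of this probe were 14.31 ± 0.05 (SD, n = 5) in controls, 14.22 ± 0.10 in MS2 and 14.30 ± 0.04 in MS5. MS2 differed from controls by -0.09 ± 0.05 (SE), which did not pass the two-sided exact permutation test (p = 0.111). The unadjusted limma p was 0.063. Without MS2 replicate 4 the difference was -0.07. It was -0.02 within the first slide and -0.20 within the second, which held MS2 replicates 4 and 5. Replicate 5 was the array with the lowest median spot signal. When single MS2 or control arrays were left out, the difference ranged from -0.12 to -0.07. The unadjusted limma p was under 0.05 in 2 of 10 such fits (without MS2 replicate 1 and without MS2 replicate 7). MS5 differed from controls by -0.01, with a 95% interval of -0.11 to 0.09, a bound well inside 1.5-fold. Its pooled within-group SD of 0.07 was small, since only 5.02% of the 36270 probes well above background on all arrays had a smaller one.

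The other Grm5 probes did not follow it or each other from array to array. A_55_P2112464, at the end of the reading frame shown above, averaged 11.37 ± 0.24 in controls, 11.43 ± 0.13 in MS2 and 11.37 ± 0.19 in MS5 (SD, n = 5 each). Its differences were 0.06, 0.00 and -0.06 in MS2 against controls, MS5 against controls and MS5 against MS2, and 0.08, 0.00 and -0.08 without MS2 replicate 4. Control replicate 15 was the highest of all arrays at 11.79.

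A_55_P2316783 was the receptor probe that passed an unadjusted p of 0.05. It read 9.49, 9.31, 9.45, 9.43 and 9.85 in controls, 9.37, 9.44, 9.72, 9.66 and 9.42 in MS2, and 10.19, 9.57, 9.75, 9.55 and 9.79 in MS5 (replicates in the order given above). All 5 MS5 arrays lay above 4 of the 5 control arrays, and control replicate 19 lay within the MS5 range. The MS5 mean was 9.77 ± 0.26 against 9.51 ± 0.20 in controls (SD, n = 5), a difference of 0.26 ± 0.12 (SE) with an unadjusted limma p of 0.0496 and an adjusted p of 1.00. The exact permutation p for the same difference was 0.0952.

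This difference was 0.41 within the first slide and 0.12 within the second, and it ranged from 0.16 (MS5 replicate 8 left out) to 0.35 (control replicate 19 left out) when single MS5 or control arrays were left out, with an unadjusted limma p of 0.010 to 0.15 that passed in 3 of 10 such fits. MS5 against MS2 differed by 0.25 at this probe (exact permutation p = 0.0952), and by 0.29 without MS2 replicate 4. The MS5 arrays with the 3 highest values, replicates 8, 14 and 12, were also those whose hypothalamus and thalamus list stood highest in the group, at 1.28, 1.02 and 0.88 above the control mean, with 6, 5 and 4 of its 11 genes above every control array. The list stood at 0.22 on control replicate 19, which had the second highest value of this probe. On MS5 replicate 13, the lowest MS5 array at 9.55, the list stood at 0.38, with 5 of 11 genes above every control array. On MS2 replicate 4, which read 9.72, the list stood at 2.69, with 10 of 11 genes above every control array. The part of these markers in the result was not tested. Over the 15 arrays this probe's Pearson correlation with the brightest Grm5 probe was -0.02 and with A_55_P2112464 -0.01, and that between the latter pair was 0.07. These are descriptions over arrays that share slides and normalization.

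Grm2 and Grm3 are the group II receptors, found on the preterminal parts of axons and, for Grm3, on glia. Grm3 read 11.01, 10.87, 11.10, 10.97 and 11.18 on control arrays, 11.06, 10.99, 11.38, 11.21 and 11.04 on MS2 arrays, and 11.14, 11.08, 11.16, 11.29 and 11.22 on MS5 arrays. The order of group means was Con (11.02 ± 0.12), MS2 (11.14 ± 0.16) and MS5 (11.18 ± 0.08, SD, n = 5 each), and neighbouring groups did not differ beyond their spread. MS5 exceeded controls by 0.16 ± 0.08 (SE), 1.11-fold, with a 95% interval of -0.01 to 0.32 and a two-sided exact permutation p of 0.0556.

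The Grm3 difference was 0.19 within the first slide and 0.13 within the second, and 0.12 to 0.20 when single MS5 or control arrays were left out, with an unadjusted limma p under 0.05 in 2 of 10 such fits (without control replicate 19 and without MS5 replicate 9). MS2 exceeded controls by 0.11 (exact permutation p = 0.262), of which 0.05 remained without MS2 replicate 4, the highest of all 15 arrays. A fit without that array, which has a smaller pooled spread, left the MS5 difference at 0.16 with an unadjusted limma p of 0.024 and an adjusted p of 0.743. In that fit 2 of the 10 receptor probes (Grm3 and Grm5 A_55_P2316783) had an unadjusted p under 0.05 in MS5 against controls, beside 5.92% of all probes. In tissue RNA, a change in the number of cells that make a receptor and a change in its RNA per cell cannot be told apart, and Grm3 is made by both neurons and astrocytes. The mean level of the 7 astrocyte markers ranged from 13.15 to 13.41 in controls, 13.30 to 13.53 in MS2 and 13.18 to 13.48 in MS5.

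Grm2, the presynaptic autoreceptor best known from the mossy fibre pathway of the adult hippocampus, averaged 10.04 ± 0.11 in controls, 10.12 ± 0.08 in MS2 and 10.09 ± 0.32 in MS5 (SD, n = 5). The MS5 arrays read 9.63, 10.43, 9.90, 10.27 and 10.20, so that they spread on both sides of the control range of 9.86 to 10.16. The differences from controls were 0.08 ± 0.12 in MS2 (SE, exact permutation p = 0.270, and 0.06 without replicate 4) and 0.04 ± 0.12 in MS5 (exact permutation p = 0.810). The MS5 difference turned to -0.04 without MS5 replicate 9, the array with Xist, and was 0.16 without MS5 replicate 8.

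**Figure D2:**
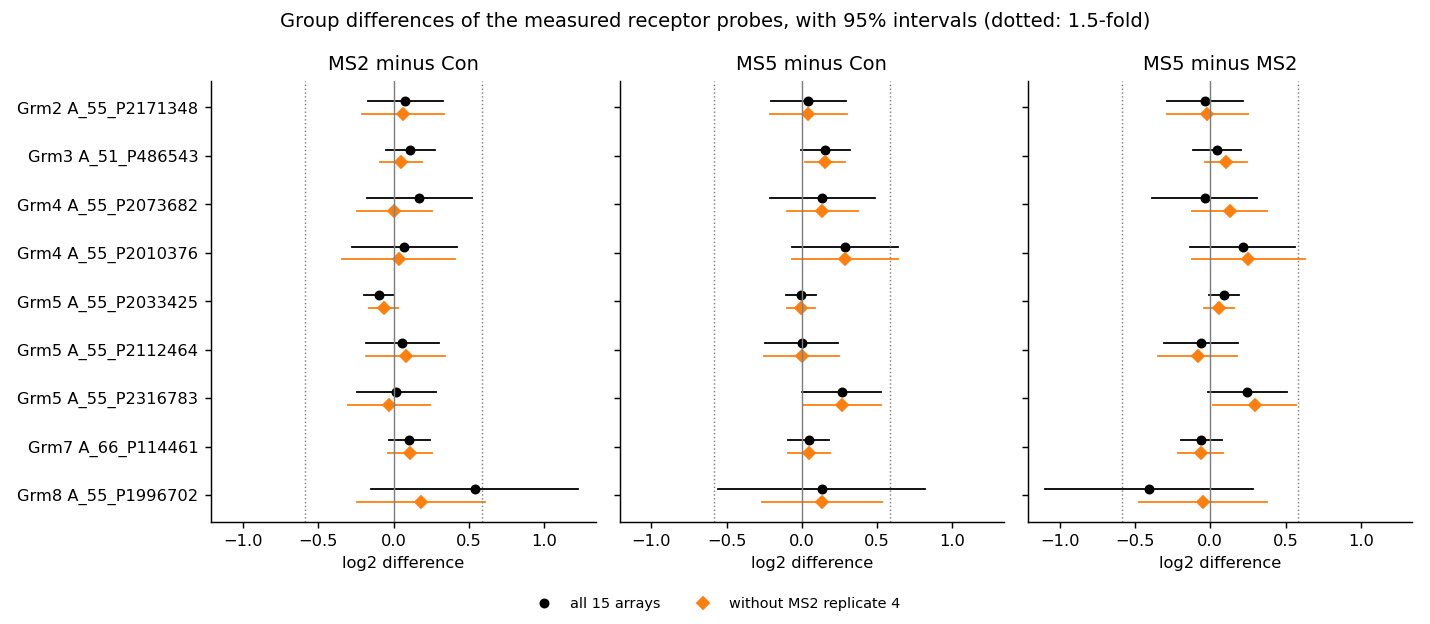
Log2 differences between groups (x axis) of the 9 receptor probes well above background on every array (y axis), with limma's 95% intervals as lines, from all 15 arrays (black circles) and without MS2 replicate 4 (orange diamonds). Dotted lines mark 1.5-fold; the Grm8 difference of MS2 minus Con moved from 0.54 to 0.18 without that array, and the widest half-width of an interval in that contrast from 0.69 to 0.42.

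Among the group III receptors, Grm8, a high-affinity presynaptic receptor, had the widest differences and rested most on 1 array. Controls read 10.13, 9.52, 9.95, 10.18 and 10.01. MS2 replicates read 10.24, 9.93, 11.93, 10.01 and 10.38, and MS5 replicates 9.91, 10.52, 9.42, 10.42 and 10.18. MS2 replicate 4 stood 1.97 above the control mean, and the groups overlapped throughout.

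The Grm8 mean was 9.96 ± 0.26 in controls, 10.50 ± 0.82 in MS2 and 10.09 ± 0.44 in MS5 (SD, n = 5). MS2 exceeded controls by 0.54 ± 0.32 (SE), 1.45-fold, with an exact permutation p of 0.159. This difference was 0.10 within the first slide and 1.20 within the second, which held MS2 replicate 4, and it fell to 0.18 without that array, with a 95% interval of -0.24 to 0.60. MS5 lay below MS2 by -0.41 (exact permutation p = 0.429), and by -0.05 without MS2 replicate 4. MS5 differed from controls by 0.13 ± 0.32, with an interval of -0.56 to 0.82 that took in 1.5-fold higher. Without MS2 replicate 4, which narrows the pooled spread, that interval was -0.27 to 0.53 and the interval of MS5 against MS2 was -0.47 to 0.38. When single MS5 or control arrays were left out, the MS5 difference from controls ranged from 0.02 to 0.30. It was 0.02 without control replicate 16 and without MS5 replicate 9, and 0.30 without MS5 replicate 12.

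Even without MS2 replicate 4 the within-group SD of Grm8 was 0.33, against 0.56 with it, and 96.6% of the 36270 probes had a smaller SD. MS5 replicate 12 and control replicate 16 held the lowest Grm8 levels, 9.42 and 9.52. The array with the highest Grm8 was the one with the low hippocampal neuron and high hypothalamus and thalamus markers. The part of those markers in the Grm8 level was not tested. Leaving out the highest MS2 array lowers the MS2 mean whatever the cause. The MS2 difference without that array was within the spread between arrays.

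Grm4, a presynaptic receptor best known from cerebellar granule cells, was read by 2 probes. The brighter, A_55_P2073682, read 9.78, 9.22, 9.54, 9.62 and 9.71 in controls, 9.64, 9.47, 10.41, 9.49 and 9.73 in MS2, and 9.89, 9.64, 9.51, 9.96 and 9.56 in MS5. MS2 replicate 4 was the highest array, 0.83 above the control mean, while the other 4 MS2 arrays averaged 9.58 ± 0.12 (SD) against 9.58 ± 0.22 in controls. The MS2 difference from controls of 0.17 ± 0.16 (SE, exact permutation p = 0.508) became 0.01 without that array. MS5 exceeded controls by 0.13 (exact permutation p = 0.357). On MS2 replicate 4 the 5 cerebellar markers averaged 1.03 above controls. Cbln1, Pcp2, Zic1 and Barhl1 were each highest on that array, at 12.49, 9.86, 14.32 and 10.78. Gabra6, a defining gene of cerebellar granule cells, read 5.87 there, within its range of 5.83 to 6.06 on the other arrays. Gabra6 was well above background on only 1 of the 15 arrays. The part of these markers in the Grm4 level was not tested.

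The second Grm4 probe, A_55_P2010376, averaged 7.36 ± 0.32 in controls, 7.44 ± 0.18 in MS2 and 7.65 ± 0.32 in MS5 (SD, n = 5). MS5 exceeded controls by 0.29 ± 0.16 (SE), with an exact permutation p of 0.230, and by 0.46 within the first slide and 0.08 within the second. Leaving out single MS5 or control arrays gave 0.16 (MS5 replicate 8 left out) to 0.41 (control replicate 19 left out), and 2 of 10 such fits had an unadjusted limma p under 0.05. MS2 differed from controls by 0.07, and by 0.03 without MS2 replicate 4. MS5 replicate 8 was the highest at 8.16, followed by control replicate 19 at 7.85. The Pearson correlation of the Grm4 probes over the 15 arrays was 0.25, a description.

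Grm7, a low-affinity receptor at the active zone of transmitter release, was among the steadiest members. Its means were 12.23 ± 0.12 in controls, 12.33 ± 0.03 in MS2 and 12.27 ± 0.13 in MS5 (SD, n = 5). MS2 exceeded controls by 0.10 ± 0.06 (SE, exact permutation p = 0.111) and by 0.11 without MS2 replicate 4, which read 12.31, close to the other MS2 arrays (12.29 to 12.37). MS5 exceeded controls by 0.05, with a 95% interval of -0.09 to 0.18, and MS5 replicate 9 was the highest array at 12.49.

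Grm6 was well above background on 1 of the 15 arrays, control replicate 16. Its probe averaged 6.03, 6.05 and 6.04 in controls, MS2 and MS5, with a range of 5.94 to 6.16 over all arrays, and no fold is given for it. The genes of the retinal cascade in which Grm6 works were also looked at as a list. Trpm1, its cation channel, had 4 probes, of which A_51_P338031 averaged 5.88 in controls with 0 arrays well above background, whereas A_55_P2043782 averaged 11.33 and was well above background on all 15 arrays.

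**Figure D3:**
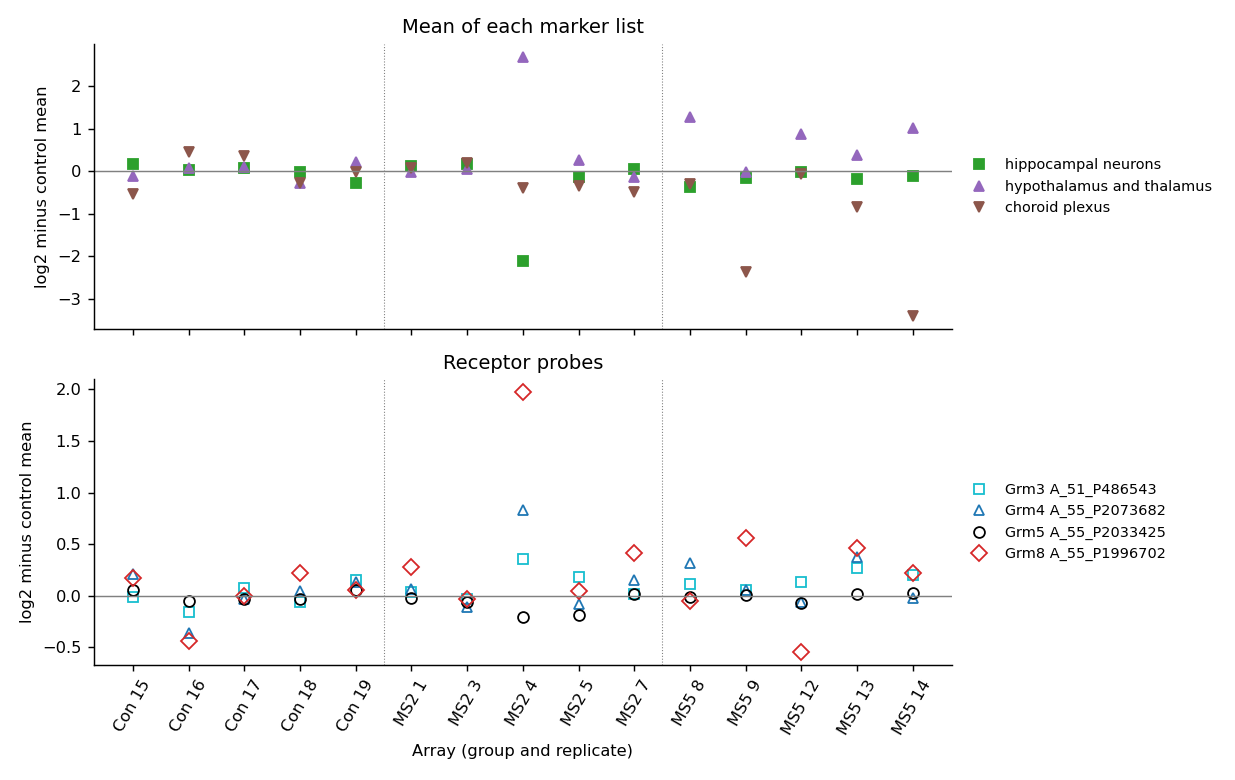
Mean of 3 marker lists (top) and levels of 4 receptor probes (bottom) on each of the 15 arrays (x axis), as the log2 difference from the mean of the 5 control arrays (y axis). On MS2 replicate 4 the hypothalamus and thalamus list stood at 2.69, the hippocampal neuron list at -2.11, Grm8 at 1.97, Grm4 at 0.83, Grm3 at 0.36 and Grm5 at -0.21.

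Set against the other 14 arrays, MS2 replicate 4 held the highest Grm8, Grm4 (brighter probe) and Grm3 levels and the lowest level of the brightest Grm5 probe, so that 4 of the 10 receptor probes (40.0%) lay beyond the range of the others, beside 30.2% of all probes. Grm2, Grm6, Grm7, the second Grm4 probe and the other Grm5 probes lay within the range. These values describe 1 array whose markers go against its tissue label.

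Genes through which the receptors signal, or whose products bind them, were not called in any contrast either. In 6 lists, 61 genes were on the arrays by name and 1 was not, and 0 of their probes were called at more than 1.5-fold in any contrast. By unadjusted limma p alone, 6 of the listed probes (5.61%) passed in MS2 against controls, above the 4.17% of all probes. In MS5 against controls and in MS5 against MS2, 2 (1.87%) passed each time, below the 3.9% and 3.97% of all probes. The median log2 differences of the listed probes were 0.01, 0.02 and 0.00. Without MS2 replicate 4 the counts were 8, 8 and 7 (7.48%, 7.48% and 6.54%), beside 4.00%, 5.92% and 6.78% of all probes. Those shares were above the shares of all probes in both contrasts with controls. In that setting 0 were called, beside 0.0162%, 0.280% and 0.187% of all probes.

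Among the Gi/o effectors of group II and III receptors (15 genes, 22 probes), 2 probes had an unadjusted limma p under 0.05 in MS5 against controls. Gnb1, a G protein beta subunit, was lower at -0.13 (unadjusted p = 0.0165, exact permutation p = 0.0159), and Rgs4, which speeds the turn-off of Gi/o and Gq signals, differed by 0.33 at 1 of its probes (unadjusted p = 0.0407, exact permutation p = 0.0556). Gnai3, an inhibitory G protein alpha subunit, differed by -0.21 in MS2 against controls with MS2 replicate 4 included (exact permutation p = 0.0635). The median of this list in MS5 against controls was 0.07. None of these passed adjustment over all probes in limma.

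The other class C receptors (8 genes, 16 probes) held 3 of the 6 probes with a low p in MS2 against controls, all from the GABA-B receptor. The Gabbr2 probes A_55_P2081273 and A_52_P612928 differed by 0.43 and 0.20 (exact permutation p = 0.0476 and 0.0556) and Gabbr1 by 0.24 (exact permutation p = 0.0794). Without MS2 replicate 4 the Gabbr2 differences were 0.38 and 0.17 and that of this Gabbr1 probe, A_55_P2082135, was 0.16. In MS5 against MS2 the Gabbr2 probe A_52_P612928 differed by -0.18 with MS2 replicate 4 included (exact permutation p = 0.0159). In MS5 against controls the smallest p of this list belonged to Gprc5c, an orphan receptor, at -0.28 (exact permutation p = 0.159).

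For the Gq and phospholipase list of group I (8 of 9 listed genes on the arrays, 15 probes), 0 probes had an unadjusted p under 0.05 in any contrast in limma, and the smallest in MS5 against controls was that of Plcb3 at -0.11 (exact permutation p = 0.167). The Homer, Shank and other receptor-binding proteins made up 14 genes and 28 probes. Of these Cyth2, an exchange factor for small GTPases, was lower in MS2 than in controls by -0.11 (exact permutation p = 0.0238). This value includes MS2 replicate 4. In MS5 against controls the smallest p of this list was that of Homer3 at -0.19 (exact permutation p = 0.143). The retinal Grm6 cascade (6 genes, 9 probes) had 0 probes with an unadjusted p under 0.05 in limma in any contrast. Its smallest p in MS5 against controls was that of Trpm1 at -0.07 (exact permutation p = 0.159).

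Among genes of glutamate transport and synthesis (10 genes, 17 probes), the smallest p in MS5 against controls was that of Slc7a11, the cystine-glutamate exchanger, at -0.15 (exact permutation p = 0.206). Slc17a8, a vesicular glutamate transporter, differed by 0.30 in MS5 against MS2 with MS2 replicate 4 included (exact permutation p = 0.0317).

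**Figure D4:**
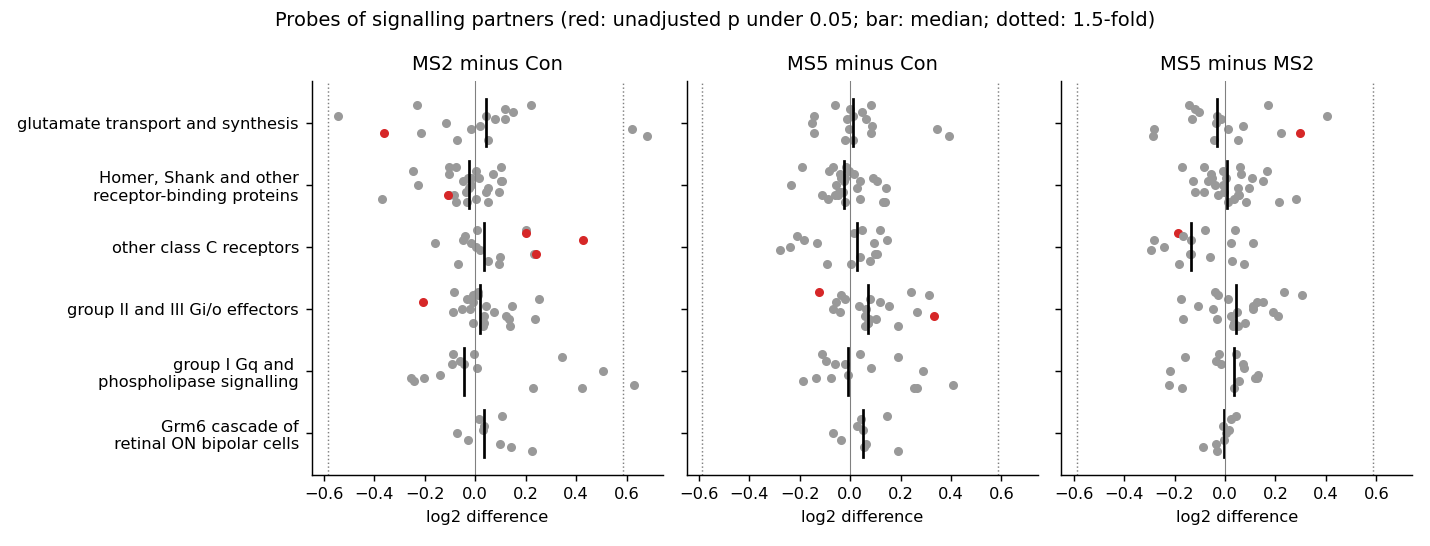
Log2 difference (x axis) of each probe in the 6 lists of signalling partners (y axis, offset within a list only to separate points), in the 3 contrasts. Red points had an unadjusted limma p under 0.05 (6, 2 and 2 probes), black bars are list medians and dotted lines mark 1.5-fold; points beyond a dotted line did not reach that p.

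The probes whose levels ran most like each receptor over the 15 arrays were taken from 20205 named probes well above background on every array, and the correlations are descriptions over arrays that share slides and normalization. Grm8 was most like Pla2g4e (r = 0.97, and 0.94 without MS2 replicate 4) and A730056A06Rik (0.96 and 0.84). Grm4 was most like Cntn4, an axonal adhesion molecule (0.94 and 0.87), and Mfsd11 (0.93 and 0.84). The values of both receptors were highest on MS2 replicate 4.

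Grm3 ran closest to Hhip, a hedgehog-binding protein (r = 0.89, and 0.83 without that array), and to 9530036O11Rik (0.88 and 0.82). For Grm2 the closest were Gnptab, a lysosomal targeting enzyme (0.92 and 0.93), and Arid5b (0.90 and 0.90). The brightest Grm5 probe ran closest to Nupl1, a nuclear pore protein (0.90 and 0.85), and Eif2a, a translation initiation factor (0.87 and 0.91). Grm7 was closest to Ccdc116 (0.86 and 0.86) and to Lrrc4c, a synaptic adhesion protein (0.84 and 0.84). Grm2 and Grm7 were highest on MS5 replicate 9. Without it the values were 0.90 (Gnptab) and 0.87 (Arid5b) for Grm2, and 0.79 (Ccdc116) and 0.82 (Lrrc4c) for Grm7. All these correlations were picked as the highest of 20205 probes, and that choice alone raises them.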

How the data were processed

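The arrays were deposited as Agilent scanner files (Feature Extraction 10.7.1.1 per the file headers), whose unit is intensity per spot, with the scanner's flags for spots well above background or saturated. The authors corrected background with normexp at an offset of 50, quantile normalized the arrays and deposited log2 values, which were used here. Repeating these steps on the scanner files gave the deposited log2 values at all 55821 probes, controls included, within 5.0e-09. Background correction and the offset compress differences of dim probes, and quantile normalization gives every array 1 distribution.

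In R 4.3.3 the 3 groups were compared with limma 3.58.1 (lmFit, eBayes) in 1 fit over 55681 non-control probes (data.table version 1.17.8 handled the files). Calls needed a difference over 1.5-fold and an unadjusted p under 0.05, as in the methods, and p were adjusted by Benjamini and Hochberg across the whole array. Exact permutation tests were two-sided over 252 assignments, with 0.00794 as the smallest possible p. In data simulated for MS5 against controls, 98.5% of 200 probes changed by 1 on the log2 scale were called. This change exceeded the call limit (0.585) and every measured receptor difference (at most 0.54). The share therefore does not say how often smaller changes would be called. The slides (3, 3 and 2 arrays of Con, MS2 and MS5 on the first, 2, 2 and 3 on the second) were scanned separately.

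The members, lists, markers and alternatives were chosen with earlier results of these data known. Named were every receptor probe, of each list the genes called and the gene with the smallest p in MS5 against controls, and for each receptor the 2 genes of highest correlation with its probe of highest mean. Probes that passed an unadjusted p of 0.05 were named after their values were seen. Alternatives were limma array weights, no normexp offset (0), processed signals from the scanner put on a common 75th percentile, slide as a block, 2-group fits, a background filter, the mean of a gene's probes, and leaving out arrays; leaving out MS2 replicate 4 and MS5 replicate 9 together was chosen after seeing the data. The miR arrays were not used here. The values of 1 listed gene are not reported here.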

Additional observations from a re-analysis of the deposited data

Results flagged for a closer look

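In each group of 5 arrays, the gap between the most extreme array and its neighbour was divided by the range of the group and compared with Dixon's 95% critical value. Of 30 such groups (10 probes in 3 groups) 3 passed, where chance alone passes about 5% of groups, 1 in 20. Grm8 in the MS2 group had a gap of 0.777 of its range, with replicate 4 highest at 11.93. Grm4 (A_55_P2073682) in the MS2 group had a gap of 0.729, again with replicate 4 highest, at 10.41. Grm5 (A_55_P2112464) in controls had a gap of 0.727, with control replicate 15 highest at 11.79. No cause was tested.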

How the results depend on the processing

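The count of receptor probes called stayed at 0 in each contrast under every alternative run, and of 276 recomputed receptor differences 255 kept their direction and 21 turned, with none gaining or losing a call. This leaves out the 2-group fits, the background filter and the scanner values at an offset of 50, which cannot move a difference. The counts over all probes moved more. From 13 (9 higher, 4 lower), 127 (25 and 102) and 72 (10 and 62) in MS2 against controls, MS5 against controls and MS5 against MS2, they became 230 (128 and 102), 401 (132 and 269) and 370 (101 and 269) at an offset of 0, and 522 (359 and 163), 623 (294 and 329) and 592 (173 and 419) on the processed signal. With array weights the counts were 9 (4 and 5), 204 and 159 (50 and 109), and the 2-group fit of MS5 against MS2 gave 38. Leaving out arrays gave 7 (without control replicate 18, and without MS2 replicate 4 and MS5 replicate 9) to 38 (without MS2 replicate 5), 61 (without MS5 replicate 14) to 213 (without MS5 replicate 12), and 15 (without MS5 replicate 14) to 123 (90 and 33, without MS2 replicate 4 and MS5 replicate 9). Without these 2 arrays MS5 against controls gave 166 (100 and 66), so that most calls were then higher in both MS5 contrasts.

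The differences that turned were all small. With array weights Grm5 in MS5 against controls was 0.0011, and Grm2 and Grm4 in MS5 against MS2 were 0.016 and 0.0677. With slide as a block Grm5 in MS5 against controls was 0.0069, and with the mean of all probes of a gene it was 0.0855, while Grm4 in MS5 against MS2 was 0.089. Leaving out arrays moved the MS5 against control differences from -0.0424 to 0.156 for Grm2, from -0.0176 to 0.0114 for Grm5 and from -0.0074 to 0.083 for Grm7, and those of MS5 against MS2 from -0.12 to 0.0778 for Grm2 and from -0.105 to 0.148 for Grm4. The cause was not tested. No paired analysis was possible, because the labels name no litter and no other link between animals of different groups. In the paper treated pups spent the nights in the home cage beside untreated littermates, so the groups may share litters. Background limited Grm6, and with all arrays the interval of Grm8 took in 1.5-fold in each contrast.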
